A study of Homo sapiens with 8 samples.

Results

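Oxidative phosphorylation (OXPHOS) genes encode the enzymes that make most of a resting cell's ATP. Complexes I, III and IV of the inner mitochondrial membrane pass electrons from NADH to oxygen and pump protons, complex II (succinate dehydrogenase) feeds in electrons from succinate without pumping, and complex V (ATP synthase) lets the protons flow back to make ATP. Most subunits are encoded in the nucleus and imported, whereas the MT-ND, MT-CYB, MT-CO and MT-ATP subunits are transcribed inside the organelle, from long transcripts of the mitochondrial DNA that are cut into separate mRNAs. In melanocytic cells, the coactivator PPARGC1A is a known target of the lineage factor MITF and raises expression of these genes.

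The genes were chosen by symbol: all symbols that begin with NDUFA, NDUFB, NDUFC, NDUFS, NDUFV, UQCR or ATP5, those that begin with COX and a digit from 4 to 8, the 4 genes SDHA to SDHD, and the mitochondrially encoded MT-ND, MT-CO, MT-CYB and MT-ATP genes. Of the 19952 symbols in the files 111 matched, and 7 were dropped because they stayed under 1 FPKM, a unit in which mapped fragments are scaled to transcript length and library depth, in all 8 libraries. This left 104 genes, 91 nuclear and 13 mitochondrially encoded. The nuclear genes comprised 37 subunits of complex I, 4 of complex II, 9 of complex III, 11 of complex IV and 17 of complex V. The names also took in 8 complex I assembly factors (NDUFAF1 to NDUFAF8) and 5 other genes, namely the muscle isoform COX6A2, COX7A2L, the ATP synthase inhibitor ATP5IF1 and the readthrough transcripts ATP5MF-PTCD1 and NDUFC2-KCTD14. The dropped genes were COX4I2, COX6B2, COX7A1, COX7B2, COX8C, NDUFA4L2 and ATP5MGL, most of them isoforms restricted to other tissues. COX7A1, the nearest below the limit, reached 0.721 FPKM in its highest library, and UQCRHL, the nearest above it, reached 1.15.

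The libraries are bulk RNA-seq of 2 cell lines labelled as human uveal melanoma, grown in the same serum-supplemented RPMI1640 medium, with 2 libraries in each of 4 groups. 92.1 cells carried either a short hairpin RNA against the cytidine deaminase gene APOBEC3B (A3B; group shA3B) or the control (shCtrl), which the methods call an empty vector. MEL290 cells carried either the full-length A3B coding sequence (A3B OE) or a negative control (NC). According to the methods, the constructs were delivered with lentiviruses and cells were selected with puromycin, while the RNA-seq section calls the 92.1 cells transfected. All 4 groups are therefore taken as cells that carried a construct or control, not as parental cells. Whether they were pools or clones, and which of the hairpins the sequenced cells carried, was not stated. Nothing in the labels says that the libraries came from separate cultures, so p-values measure only the spread between these libraries, which may be technical. APOBEC3B itself stood at 35.9 and 32.3 FPKM in shCtrl cells, 1.98 and 2.37 in shA3B cells, 2.67 and 2.19 in NC cells and 28.4 and 27.5 in A3B OE cells.

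The cell type label was checked against marker genes. All 8 melanocyte markers reached 1 FPKM in 92.1 cells, where they summed to between 7116 and 8713 FPKM per library. In MEL290 cells they summed to between 15.2 and 20.7 FPKM, nearly all of it MITF, TYR was at 0 in all 4 libraries, and SOX10 was at 0 in 3 of them. KRT8 and KRT18 made most of the 1680 to 2584 FPKM of keratinocyte and epithelial markers in MEL290, against 3.75 to 5.67 FPKM in 92.1. Fibroblast markers summed to 5.56 to 7.87 FPKM in 92.1 and 44.1 to 60.7 in MEL290, and immune and endothelial markers stayed under 1 FPKM in sum in every library. MEL290 is therefore named here by its line only. In bulk RNA, fewer cells expressing a gene and less RNA per cell cannot be told apart. A rough estimate from low FPKM values put the depth at 17000000 to 31000000 fragments per library.

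OXPHOS mRNAs made up a large part of the measured transcriptome, and most of that part came from the mitochondrial genome. The 13 mitochondrially encoded genes held 15.4% ± 0.559 (SD, n = 2) of the summed FPKM in shCtrl cells, 16.4% ± 0.207 in shA3B cells and 13.0% ± 0.369 in NC cells. In A3B OE cells they held 11.01% ± 0.219. These shares include MT-ATP8, whose level is uncertain as described with its sequence. Its mean was 4347 FPKM in shCtrl cells and 25148 in NC cells, so the shares understate the difference between the lines. Without MT-ATP8 the summed FPKM of shCtrl cells was 1.75 times that of NC cells, against 1.26 with it. The ratio of A3B OE to NC cells was 0.879 without it and 0.850 with it. The 91 nuclear genes together held 2.26% ± 0.0369 in shCtrl cells, 2.33% ± 0.0492 in shA3B cells and 1.81% ± 0.0109 in NC cells, against 1.65% ± 0.0275 in A3B OE cells. Both shares were thus lowest in A3B OE cells, and in that line neither share overlapped between the 2 groups.

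Within each complex the nuclear subunits differed widely in level, although they enter the complex in fixed proportions. In complex I the mean over the 8 libraries ran from 14.0 FPKM for NDUFV3, a small accessory subunit of the NADH-binding module, to 351 FPKM for NDUFS5, an accessory subunit of the membrane arm. In complex II it ran from 41.6 FPKM for SDHD to 116 FPKM for SDHC, the 2 membrane anchors. In complex III the highest was UQCRH, the hinge protein, at a mean of 369 FPKM. Its retrocopy UQCRHL, nearly identical in sequence, was the lowest at a mean of 0.786 FPKM, and how reads shared by the 2 genes were divided is not stated. In complex IV the mean ran from 40.2 FPKM for COX7B to 542 FPKM for COX8A, and in complex V from 25.8 FPKM for ATP5F1E, the epsilon subunit, to 467 FPKM for ATP5MF, a subunit of the membrane sector. The lowest mitochondrially encoded gene, MT-ND5, had a mean of 1770 FPKM, above that of every nuclear member.

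The mitochondrially encoded subunits stood lower with A3B overexpression in MEL290, 5 of 13 past the test. Their summed FPKM was 82631 and 79444 in the NC libraries and 69664 and 68115 in the A3B OE libraries, a ratio of group means of 0.850. Without MT-ATP8 and MT-ND4L, whose levels are uncertain as described with their sequences, the ratio was 0.856. In 12 of the 13 genes the higher A3B OE value was under the lower NC value, and 5 of these were called lower (limma on log2(FPKM + 1) in the 4 MEL290 libraries, Benjamini-Hochberg adjusted p under 0.05 over all 11611 genes tested). Of all tested genes 7.49% were called lower and 10.3% higher, 17.8% in all. Groups did not overlap in 61.3% of all tested genes, with A3B OE lower in 29.7%. The median log2 difference of the 13 genes was -0.24, against 0.00 over all tested genes.

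MT-CO3, a core subunit of complex IV, was at 6533 and 6587 FPKM in NC cells and at 5138 and 4979 in A3B OE cells. Its log2 difference was -0.38 (standard error 0.061, adjusted p = 0.012, limma). MT-CO1 and MT-CO2, the subunits that carry the metal centres of the same complex, had log2 differences of -0.18 and -0.22 and were not called (adjusted p = 0.10 and 0.077, limma). MT-CYB, the cytochrome b of complex III, stood at 2248 and 2346 FPKM in NC cells and at 1934 and 1885 in A3B OE cells, a log2 difference of -0.27 (standard error 0.061, adjusted p = 0.032, limma). In each of these 4 genes the groups were apart, with A3B OE lower.

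Complex I has the most mitochondrially encoded subunits, and 3 of the 7 were called. MT-ND1, which lies where the membrane arm meets the peripheral arm, was at 2145 and 2104 FPKM in NC cells and at 1772 and 1659 in A3B OE cells (log2 difference -0.31, standard error 0.063, adjusted p = 0.024, limma). MT-ND5, a proton-pumping subunit of the membrane arm, was at 2220 and 2214 FPKM in NC cells and at 1791 and 1817 in A3B OE cells (log2 difference -0.30, standard error 0.057, adjusted p = 0.020, limma). MT-ND6, the one subunit gene of the light strand, was at 2362 and 2413 FPKM in NC cells and at 1979 and 1913 in A3B OE cells (log2 difference -0.30, standard error 0.059, adjusted p = 0.022, limma). MT-ND6 abuts MT-ND5 on the opposite strand, and since the sources used here do not state a strand-aware count, reads of the 2 genes may not be fully separated. MT-ND4L was the exception to the common direction, at 7921 and 8059 FPKM in NC cells and at 8340 and 7870 in A3B OE cells, with overlapping groups. The 5 calls all lost significance when NC replicate 1 or NC replicate 2 was left out, and also with the replicate number as a block, without the variance trend and with no filter on low FPKM, with the direction unchanged (adjusted p up to 0.10 for MT-CO3, 0.15 for MT-ND1 and MT-ND5, 0.19 for MT-ND6 and 0.28 for MT-CYB over all 14 alternative settings, limma).

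**Figure D1:**
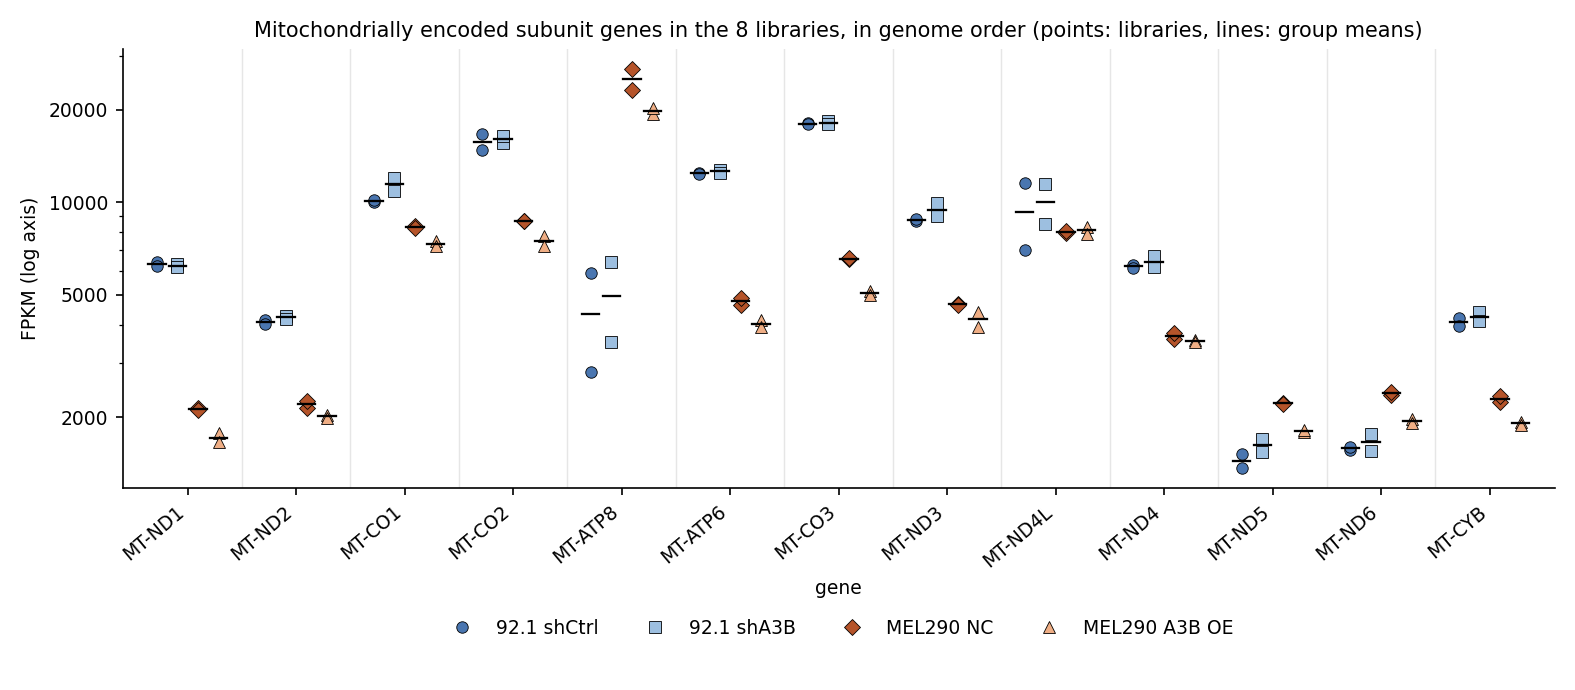
FPKM (log axis) of the 13 mitochondrially encoded subunit genes, ordered along the mitochondrial genome, in the 8 libraries; points are libraries and short lines are group means of 2. In MEL290 the A3B OE triangles sit below the NC diamonds in all genes but MT-ND4L, and MT-ATP8, MT-ND5 and MT-ND6 are the genes in which 92.1 lies below MEL290.

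In 92.1 cells A3B depletion was followed by no call among these genes. Their summed FPKM was 105537 and 99223 in the shCtrl libraries and 109898 and 104258 in the shA3B libraries, which overlap, and the ratio of group means was 1.05. The log2 difference was positive in 12 of the 13 genes, with a median of 0.05 and a range from -0.01 to 0.22. MT-CO1 was at 9992 and 10200 FPKM in shCtrl cells and at 11974 and 10893 in shA3B cells, a log2 difference of 0.18 (standard error 0.14). MT-ND5 was at 1368 and 1518 FPKM in shCtrl cells and at 1537 and 1697 in shA3B cells, a log2 difference of 0.16 (standard error 0.13). In both genes the groups did not overlap, and both differences were close in size to their standard errors.

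The 2 shortest mitochondrially encoded genes, MT-ATP8 and MT-ND4L, overlap their downstream neighbours on the same transcript, and their FPKM did not follow those neighbours. MT-ATP8 spans 207 bases (chrM:8366-8572 of GRCh38) and MT-ATP6 spans 681 bases (chrM:8527-9207), both on the plus strand and both encoding membrane subunits of ATP synthase, with 46 bases in common. MT-ND4L spans 297 bases (chrM:10470-10766) and shares 7 bases with MT-ND4 (chrM:10760-12137). The 2 overlaps are shown, 5′ to 3′, because each pair is read from a single mRNA, with the shared bases in capitals and 30 bases on each side in lower case (chrM:8497-8602 and chrM:10730-10796, GRCh38, plus strand).
MT-ATP8/MT-ATP6: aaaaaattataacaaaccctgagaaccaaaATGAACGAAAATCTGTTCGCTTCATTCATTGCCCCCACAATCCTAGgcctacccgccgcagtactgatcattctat
MT-ND4L/MT-ND4: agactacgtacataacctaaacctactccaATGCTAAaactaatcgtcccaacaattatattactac

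MT-ATP6 was at 12470 and 12366 FPKM in shCtrl cells, 12761 and 12448 in shA3B cells, 4643 and 4896 in NC cells and 4132 and 3935 in A3B OE cells. MT-ATP8 was at 5885 and 2810 FPKM in shCtrl cells, 6401 and 3500 in shA3B cells, 27126 and 23169 in NC cells and 19326 and 20216 in A3B OE cells. The FPKM ratio of MT-ATP8 to MT-ATP6 therefore lay between 0.227 and 0.502 in 92.1 and between 4.68 and 5.84 in MEL290, without overlap of the lines. The ratio of MT-ND4L to MT-ND4 lay between 1.14 and 1.86 in 92.1 and in the narrower range of 2.15 to 2.34 in MEL290. In the 92.1 groups replicate 1 was higher than replicate 2 for both MT-ATP8 and MT-ND4L (11551 against 6987 FPKM in shCtrl cells and 11474 against 8533 in shA3B cells for the latter). FPKM divides by transcript length, and what the short length or the shared bases contribute to these 2 values was not tested. The levels of MT-ATP8 and MT-ND4L are therefore given as uncertain. In MEL290 MT-ATP8 and MT-ATP6 had log2 differences of -0.34 and -0.24 after A3B overexpression, both just short of the threshold (adjusted p = 0.054 for each, limma).

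Of the 89 nuclear OXPHOS genes tested in MEL290, 8 were called lower in A3B OE cells and 0 higher, and together with the mitochondrially encoded genes 13 of 102 were called, all lower (12.7%, against 7.49% of all tested genes called lower). The median log2 difference of all 102 genes was -0.09, against 0.00 over all tested genes. The groups were apart in 52 genes (background 61.3%), with A3B OE lower in 45 and higher in 7 (backgrounds of 29.7% and 31.5%). At an unadjusted p under 0.05, 24 genes were lower and 1 was higher, where 1767 and 2081 of all 11611 tested genes were. The latter, UQCRFS1, the Rieske iron-sulfur protein of complex III and named after its values were seen, was at 35.1 and 34.6 FPKM in NC cells and at 41.0 and 40.4 in A3B OE cells. From this gene to the end of chromosome 19, 449 genes were tested, with a median log2 difference of 0.23. Of these 23.6% were called higher, against 10.3% of all tested genes. This stretch was looked at after the values were seen, and its part in the difference was not tested. The number called rested on single libraries: it was 6 without NC replicate 1 and 5 without NC replicate 2, and it was 11 when A3B OE replicate 1 was left out and 6 when replicate 2 was, all lower each time. With a variance prior that did not follow expression, and with no filter on low FPKM, 3 were called, and with all 8 libraries in 1 fit 6 were called. The sum of the keratinocyte and epithelial markers moved in the same direction as these genes, from 2548 and 2584 FPKM in NC cells to between 1680 and 1897 in A3B OE cells. Of these markers 3 of 3 tested were called lower (KRT14, KRT18 and KRT8), and KRT5 was at 0 throughout. CDH1 and EPCAM, too low to be tested, went the other way on average. CDH1 was at 0.180 and 0.393 FPKM in NC cells and at 0.301 and 2.14 in A3B OE cells, and EPCAM at 0 and 0 and at 0.0575 and 0.0704. The part of these markers in the differences was not tested.

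The 3 largest falls were the most stable of the 13. ATP5F1D, which encodes the delta subunit in the central stalk of ATP synthase (chr19:1241746-1244825, plus strand, GRCh38), was at 81.3 and 86.9 FPKM in NC cells and at 53.0 and 51.2 in A3B OE cells. Its log2 difference was -0.68 (standard error 0.075, adjusted p = 0.0044, limma), and it was called under all 14 alternatives, with log2 differences from -0.73 to -0.63. NDUFB1, an accessory subunit of the membrane arm of complex I (chr14:92116122-92121917, minus strand), was at 202 and 224 FPKM in NC cells and at 137 in both A3B OE libraries. Its log2 difference was -0.63 (standard error 0.075, adjusted p = 0.0052, limma), and the call was lost only with all 8 libraries in 1 fit, where the adjusted p was 0.084 (range over the 14 alternatives 0.00032 to 0.084). NDUFAF8, an assembly factor of complex I (chr17:81239305-81241310, plus strand), was at 198 and 200 FPKM in NC cells and at 101 and 137 in A3B OE cells, so that the A3B OE libraries differed from each other more than in the other called genes. Its log2 difference was -0.75 (standard error 0.14, adjusted p = 0.018, limma), called in 12 of 14 alternatives. The call was lost with no filter on low FPKM and with the GC and length trend removed (adjusted p up to 0.10, limma).

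The other called genes fell by less. COX7C, a small membrane subunit of complex IV, was at 326 and 355 FPKM in NC cells and at 267 and 265 in A3B OE cells (log2 difference -0.35, standard error 0.068, adjusted p = 0.019, limma). NDUFS5 was at 415 and 402 FPKM in NC cells and at 349 and 306 in A3B OE cells (log2 difference -0.32, standard error 0.080, adjusted p = 0.043, limma). In both genes every A3B OE library lay below every NC library. The last 3, NDUFA1, NDUFAB1 and NDUFB2, fall outside the naming rule and are named after their values were seen. NDUFA1, an accessory subunit of the membrane arm, had a log2 difference of -0.34, NDUFAB1, the mitochondrial acyl carrier protein that is also a subunit of complex I, of -0.33, and NDUFB2, again a membrane arm subunit, of -0.31 (adjusted p = 0.030, 0.023 and 0.034, limma). NDUFA1 went from 216 and 241 FPKM in NC cells to 179 and 181 in A3B OE cells. NDUFAB1 went from 110 and 115 FPKM to 90.1 and 88.5, and NDUFB2 from 235 and 243 FPKM to 201 and 184. COX7C, NDUFS5, NDUFA1, NDUFAB1 and NDUFB2 were each called in 7 to 9 of the 14 alternatives, with the fall in the same direction in all 14.

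Seen by complex, complex I had 5 of 37 nuclear subunits called lower, complex IV 1 of 11, complex V 1 of 17, the assembly factors 1 of 8, and complexes II and III 0 of 4 and 0 of 8. Of all tested genes 7.49% were called lower, and 1 call in a class of 8 to 17 genes lies near that share. The 5 called complex I genes were all accessory subunits, but so were 30 of the 37 nuclear subunits of that complex. Whether core and accessory subunits differ was not tested. Of the 7 nuclear core subunits, which carry the flavin and iron-sulfur clusters, NDUFV2 had the largest of the differences in which the groups did not overlap, at 73.5 and 73.6 FPKM in NC cells and at 67.2 and 65.4 in A3B OE cells (log2 difference -0.15, standard error 0.069, adjusted p = 0.20, limma). NDUFS1, the largest subunit of the complex, was at 29.7 and 29.2 FPKM in NC cells and at 29.1 and 28.6 in A3B OE cells. NDUFV1, which binds NADH, was at 74.9 and 69.1 FPKM in NC cells and at 74.0 and 70.5 in A3B OE cells, and NDUFS7 was at 71.4 and 67.8 and at 69.9 and 69.3.

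Complex II, the one complex without a mitochondrially encoded subunit, was split. SDHB, its iron-sulfur subunit, was at 49.3 and 51.4 FPKM in NC cells and at 56.4 and 55.3 in A3B OE cells (log2 difference 0.15, standard error 0.074, adjusted p = 0.22, limma). SDHC was at 128 and 139 FPKM in NC cells and at 116 and 107 in A3B OE cells (log2 difference -0.26, standard error 0.078, adjusted p = 0.074, limma). SDHA, the flavoprotein, and SDHD gave overlapping or nearly equal groups, with SDHA at 41.8 and 46.5 FPKM in NC cells and at 50.5 and 43.4 in A3B OE cells. None of the 4 SDH genes was called.

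**Figure D2:**
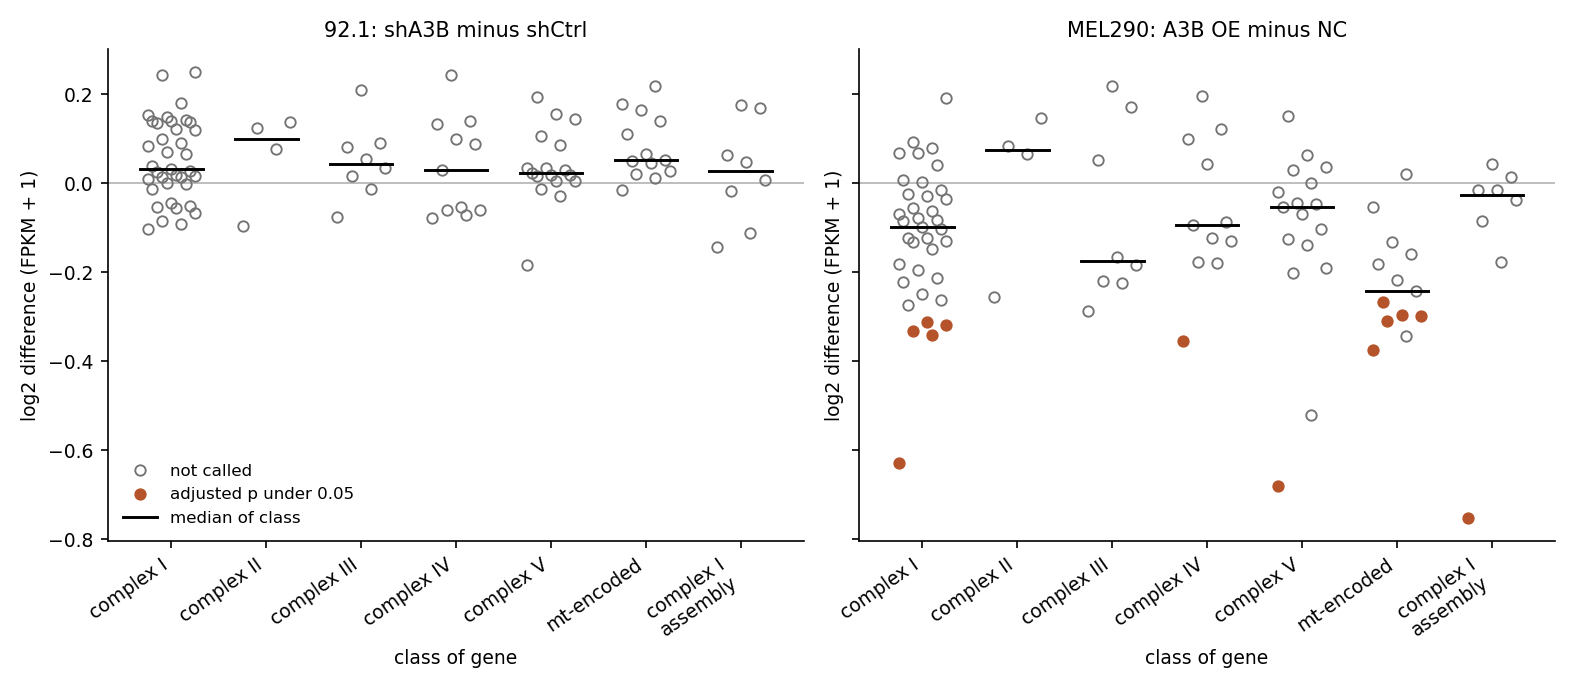
Log2 difference of FPKM + 1 for each OXPHOS gene by class, in 92.1 (shA3B minus shCtrl, left) and MEL290 (A3B OE minus NC, right); filled points passed an adjusted p under 0.05 and lines are class medians. No point is filled on the left, and all 13 filled points on the right lie below 0.

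Summed over their genes, the 5 complexes and the assembly factors were lower on average with A3B overexpression, by different amounts. The complex I sum was 3933 and 3918 FPKM in NC cells and 3658 and 3307 in A3B OE cells, a ratio of 0.887. The ratio was 0.960 for complex II, 0.908 for complex III, 0.969 for complex IV, 0.930 for complex V and 0.759 for the assembly factors, where NDUFAF8 is the most abundant gene. The group sums overlapped for complexes II and IV and did not overlap for the others. Of the 8 assembly factors only 1, NDUFAF8, had groups apart, and their median log2 difference was -0.03, so the low ratio of this class went with a single gene. The 5 other genes (COX6A2, COX7A2L, ATP5IF1 and the readthroughs) were higher on average, at 257 and 227 FPKM in NC cells and at 267 and 233 in A3B OE cells, with overlap (ratio 1.03). These sums weight abundant genes most and carry no test.

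**Figure D3:**
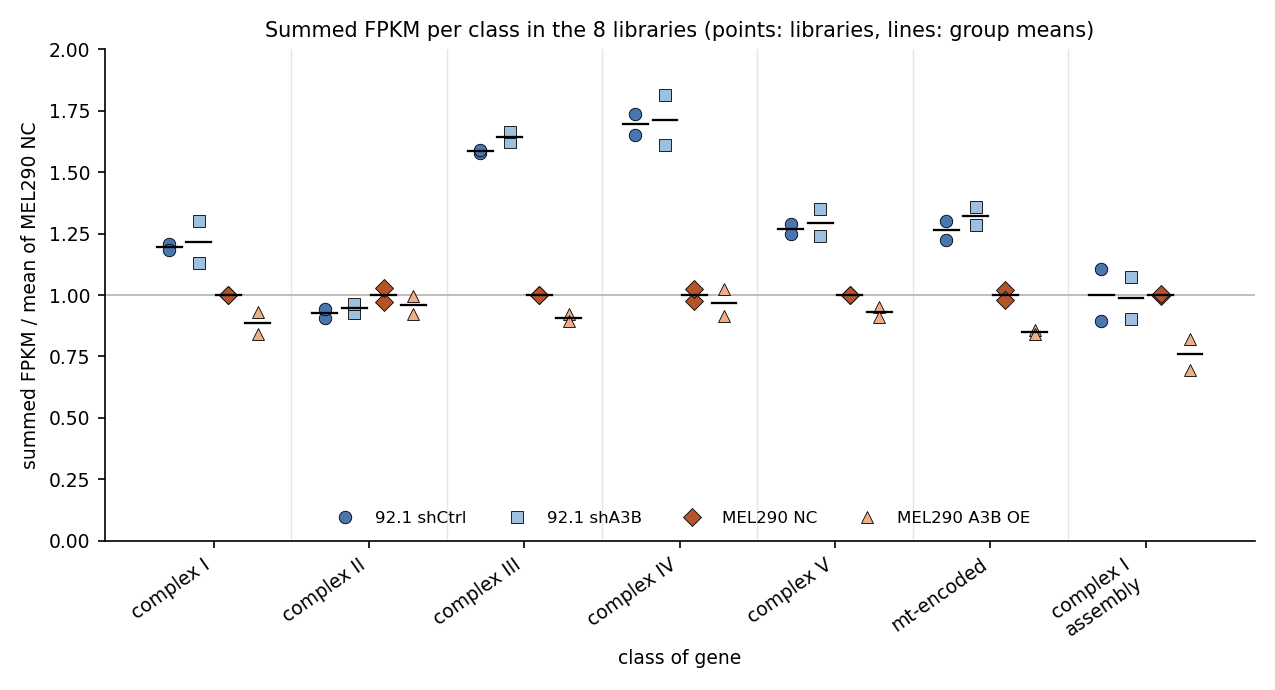
Summed FPKM of the nuclear genes of each class and of the mitochondrially encoded genes, divided by the mean of the 2 NC libraries of MEL290, in the 8 libraries; points are libraries and short lines are group means. The A3B OE triangles average below 1 in every class drawn, and the 92.1 points lie highest above MEL290 in complexes III and IV.

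No OXPHOS gene was called after A3B depletion in 92.1 (0 of 102 tested with limma, and 0 at an unadjusted p under 0.05). In the same fit 1 of 11605 genes was called (0.00862%), and 336 had an unadjusted p under 0.05. The 1 called gene was APOBEC3B itself, with a log2 difference of -3.47. The absence of calls in 92.1 therefore does not show that differences of the size called in MEL290 were absent. The median log2 difference of the OXPHOS genes was 0.04, against 0.00 over all tested genes, and single genes ranged from -0.18 to 0.30. The groups were apart in 19 genes (background 28.6%), with shA3B higher in 18 and lower in 1, SDHC (backgrounds of 15.3% and 13.3%).

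Positive differences were found in several complexes. COX6A2, the heart and muscle isoform of a complex IV subunit, had the highest log2 difference, from 1.91 and 1.93 FPKM in shCtrl cells to 3.04 and 2.19 in shA3B cells (0.30, standard error 0.19), and was listed at 0 in all MEL290 libraries. ATP5MC1, one of the 3 genes for the c-ring protein of ATP synthase, was at 156 and 183 FPKM in shCtrl cells and at 193 and 194 in shA3B cells (log2 difference 0.20, standard error 0.13). In complex II, SDHA and SDHB had log2 differences of 0.12 and 0.14 and SDHC of -0.10, each with a standard error of 0.13. These differences were of the order of their standard errors. The summed FPKM of the complexes, the assembly factors and the mitochondrially encoded genes stayed between 0.988 and 1.05 times the shCtrl mean. The 5 other genes summed to 173 and 153 FPKM in shCtrl cells and to 194 and 174 in shA3B cells, without overlap (ratio 1.13).

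The nuclear genes called in MEL290 were also read in 92.1. ATP5F1D was at 198 and 262 FPKM in shCtrl cells and at 220 and 183 in shA3B cells, NDUFB1 at 156 and 110 and at 177 and 118, and NDUFAF8 at 184 and 141 and at 178 and 124. In all 3 the groups overlapped, and in NDUFB1 and NDUFAF8 replicate 1 of each group was above both replicates numbered 2. COX7C was at 586 and 455 FPKM in shCtrl cells and at 607 and 534 in shA3B cells, also with overlap. The groups overlapped in NDUFS5, NDUFAB1 and NDUFB2 too. They did not in NDUFA1, which was at 169 and 166 FPKM in shCtrl cells and at 176 and 189 in shA3B cells, and was not called.

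Whether the 2 manipulations had different effects was tested in 1 fit over all 8 libraries, as the A3B OE minus NC difference less the shA3B minus shCtrl difference. No OXPHOS gene was called (0 of 104, limma), where 4.40% of all 12697 tested genes were, 3.06% with the higher and 1.35% with the lower value in the MEL290 contrast. At an unadjusted p under 0.05 there were 15 OXPHOS genes, all with the lower value in the MEL290 contrast, and 2531 genes in all. The value was below 0 in all 13 mitochondrially encoded genes, with a median of -0.29. A3B fell in 1 line and rose in the other, so line and direction of the A3B change cannot be told apart.

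The largest differences among OXPHOS genes were between the lines. In the comparison of shCtrl cells of 92.1 with NC cells of MEL290 (all 8 libraries in 1 fit), 53 of 104 genes were called higher in 92.1 and 20 lower, where 40.1% and 34.8% of the 12697 tested genes were, 74.9% in all. The median log2 difference was 0.40, against 0.07 over all tested genes. The groups were apart in 85 genes (background 87.0%), with 92.1 higher in 60 and lower in 25 (backgrounds of 46.3% and 40.7%). Line, vector and any separate handling of the lines cannot be told apart, and the column headers of the deposited tables differ between the lines.

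By summed FPKM, complexes III and IV stood highest in 92.1 relative to MEL290. Summed FPKM was 1499 and 1511 in shCtrl cells and 951 and 948 in NC cells for complex III (ratio 1.59), and 4126 and 3925 against 2314 and 2436 for complex IV (ratio 1.69). All 11 nuclear complex IV genes had a positive difference, and 8 were called higher. In complex III only 3 of 9 genes were called higher and 1 was called lower. Of all tested genes 40.1% were called higher and 34.8% lower. Its median log2 difference was 0.09, against 0.43 in complex I. The gene UQCRQ alone held 511 of the mean 1505 FPKM of complex III in shCtrl cells, and 110 of 949 in NC cells. COX6C, a membrane subunit of complex IV, was at 699 and 690 FPKM in shCtrl cells and at 135 and 161 in NC cells (log2 difference 2.23, standard error 0.11, adjusted p = 4.4e-07, limma). UQCRQ, a small subunit of complex III that contacts cytochrome b, was at 468 and 553 FPKM in shCtrl cells and at 112 and 107 in NC cells (log2 difference 2.20, standard error 0.14, adjusted p = 2.2e-06, limma). NDUFA4, once counted to complex I and now to complex IV, was at 75.6 and 63.4 FPKM in shCtrl cells and at 31.6 and 29.6 in NC cells (log2 difference 1.15), while COX4I1 differed by 0.53.

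Complex I was mixed, with 19 subunits called higher in 92.1, 10 lower and 8 not called. Calls in both directions were also common over all tested genes (40.1% higher and 34.8% lower). NDUFB9 was at 363 and 387 FPKM in shCtrl cells and at 116 and 110 in NC cells (log2 difference 1.72, standard error 0.13, adjusted p = 5.0e-06, limma). NDUFA3 was at 197 and 215 FPKM in shCtrl cells and at 59.7 and 68.8 in NC cells (log2 difference 1.67, standard error 0.16, adjusted p = 2.2e-05, limma). Both are accessory subunits, and in both the lines were far apart. In the other direction, NDUFS4, an accessory subunit known for its mutation in Leigh syndrome, was at 40.5 and 28.8 FPKM in shCtrl cells and at 81.4 and 70.2 in NC cells (log2 difference -1.12, standard error 0.16, adjusted p = 0.00026, limma). NDUFB3 and NDUFA12 had log2 differences of -1.04 and -0.93 (adjusted p = 3.0e-05 and 0.00011, limma). Among the nuclear core subunits NDUFS7, NDUFV1 and NDUFS3 were called higher in 92.1, by 1.14, 0.96 and 0.77 on the log2 scale.

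The assembly factors also differed by gene. NDUFAF6 was at 42.0 and 32.1 FPKM in shCtrl cells and at 8.98 and 6.56 in NC cells (log2 difference 2.12, standard error 0.17, adjusted p = 8.0e-06, limma). NDUFAF1 was at 5.44 and 4.04 FPKM in shCtrl cells and at 12.8 and 12.4 in NC cells (log2 difference -1.26, standard error 0.16, adjusted p = 0.00014, limma). So 2 factors for the same complex stood in opposite directions.

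Of the SDH genes, SDHA was called higher in 92.1 (log2 difference 0.63, adjusted p = 0.00081, limma), SDHC and SDHD lower (-0.25 and -0.71, adjusted p = 0.033 and 0.00045), and SDHB was not called. The mean of SDHD was 30.6 FPKM in shCtrl cells (SD 4.21) and 50.6 FPKM in NC cells (SD 0.793, n = 2 each). Complex II had the lowest of the ratios between the lines among the complexes, with summed FPKM of 253 and 263 in shCtrl cells and 271 and 287 in NC cells (ratio 0.926).

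In complex V, ATP5F1D, called lower in A3B OE cells, was at 198 and 262 FPKM in shCtrl cells and at 81.3 and 86.9 in NC cells (log2 difference 1.43, standard error 0.14, adjusted p = 2.9e-05, limma). The 3 genes that encode the same c-ring protein with different leader peptides were compared: ATP5MC2 and ATP5MC3 were called higher in 92.1, by 1.26 and 1.07 on the log2 scale, and ATP5MC1 was at 156 and 183 FPKM in shCtrl cells and at 175 and 181 in NC cells, with overlap. ATP5IF1, the inhibitor of ATP synthase when it runs backwards, was lower in 92.1, at 110 and 85.2 FPKM in shCtrl cells and at 179 and 165 in NC cells (log2 difference -0.82, standard error 0.15, adjusted p = 0.0010, limma). Of the isoform pairs, COX6A1 was at 507 and 436 FPKM in shCtrl cells and at 393 and 425 in NC cells, and its muscle counterpart COX6A2 was near 2 FPKM in 92.1 and at 0 in MEL290. COX6B1 was at 422 and 500 FPKM in shCtrl cells and at 428 and 474 in NC cells, and COX7A2 at 109 and 90.2 and at 88.6 and 87.1, and none of these 3 was called.

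The mitochondrially encoded genes differed unevenly. MT-ND1 was higher in 92.1 by 1.57 on the log2 scale (6382 and 6208 FPKM in shCtrl cells, 2145 and 2104 in NC cells, adjusted p = 4.3e-07, limma), MT-CO3 by 1.46 and MT-ATP6 by 1.38. MT-CYB was higher by 0.83 and MT-CO1 by 0.28 (9992 and 10200 FPKM against 8356 and 8279, adjusted p = 0.015, limma). MT-ND5, MT-ND6 and MT-ATP8 were called lower, with log2 differences of -0.62, -0.59 and -2.62 (adjusted p = 0.00024, 0.00028 and 0.00019, limma). The FPKM ratio of MT-CO3 to MT-CO1, both from the heavy strand, lay between 1.54 and 1.82 in the 92.1 libraries and between 0.687 and 0.796 in the MEL290 libraries. In summed FPKM the 13 genes were 1.26 times as high in shCtrl as in NC cells. This ratio rested on MT-ATP8, whose level is uncertain: it was 1.75 without that gene, and 1.85 without MT-ATP8 and MT-ND4L, sums that were chosen after the values were seen.

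COX6C, UQCRB, NDUFB9 and NDUFAF6 lie on the long arm of chromosome 8, and all 4 were called higher in 92.1 than in MEL290, with a median log2 difference of 1.92. Over the 79 tested genes in the span that holds them the median was 0.52 and 59.5% were called higher, so the region as a whole was also higher than the median gene. On chromosome 19 up to base 29205319, 6 of 7 OXPHOS genes were called higher in 92.1, with a median of 0.83. ATP5F1D and NDUFS7 lie in that stretch. Over its 415 tested genes the median was 0.87 and 70.4% were called higher, against 40.1% of all tested genes. Both regions were looked at after the values were seen. DNA copy number was not analysed here, and the part of the regions in the differences was not tested.

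Neighbouring gene lists were read in the same fits. In A3B OE cells of MEL290, 10 of 17 glycolysis genes were called higher and 0 lower, where 10.3% and 7.49% of all tested genes were, with a median log2 difference of 0.37. ALDOC (aldolase C) had the largest log2 difference at 1.84, from 0.632 and 0.395 FPKM in NC cells to 4.73 and 4.11 in A3B OE cells, followed by GPI (glucose-6-phosphate isomerase) at 0.74 and ENO2 (enolase 2) at 0.71 (adjusted p = 0.0027, 0.0025 and 0.0031, limma). These 3 were also called in the comparison of the 2 effects. LDHA, which reduces pyruvate to lactate and was named after its values were seen, was at 1161 and 1093 FPKM in NC cells and at 1464 and 1508 in A3B OE cells. None of the 18 citric acid cycle genes and none of the 18 electron carriers and related genes, among them CYC1 and CYCS, was called in MEL290 (medians 0.03 and 0.13). Of 44 further assembly factors SDHAF3, which helps to mature SDHB, was called higher (log2 difference 0.50) and COX14, an assembly factor of complex IV, lower (-0.56). Of 17 tested regulators of mitochondrial biogenesis 1 was called, MYC, lower by a log2 difference of -0.60. With limma in 92.1, 0 genes of these 5 lists were called after A3B depletion.

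Between the control lines 14 of the 17 glycolysis genes were lower in 92.1 and 3 higher, with a median log2 difference of -0.86, the opposite sign to the OXPHOS median of 0.40. Of the 18 electron carriers and related genes 10 were called higher in 92.1 and 4 lower, of the 44 further assembly factors 21 and 12, of the 19 regulators 10 and 3, and of the 18 citric acid cycle genes 9 and 5. Over all tested genes 40.1% were called higher and 34.8% lower, so a large share of any list was called. The regulators PPARGC1B and ESRRA were higher in 92.1 by 2.83 and 2.32 on the log2 scale and MYC by 1.19 (adjusted p = 2.2e-07, 4.1e-06 and 4.4e-05, limma). CYC1, the cytochrome c1 of complex III whose name the rule does not match, was at 225 and 278 FPKM in shCtrl cells and at 53.5 and 50.7 in NC cells (log2 difference 2.24). PPARGC1A, the MITF target named above, was at 1.58 and 0.907 FPKM in shCtrl cells, 1.17 and 2.50 in shA3B cells and at most 0.328 in MEL290 libraries. All 8 melanocyte markers were higher in 92.1 as well, and their part in the difference between the lines was not tested.

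The called nuclear genes had short transcripts. The median canonical transcript of the nuclear OXPHOS genes was 763 bases, against 3390 bases over the genes tested. In MEL290 15.7% of the 51 nuclear OXPHOS genes with transcripts under 1000 bases were called lower (median log2 difference -0.10), against 10.9% of 579 other genes of that length (median -0.03), and 0 of the 38 longer OXPHOS genes was. The limit of 1000 bases was chosen after the values were seen, and the part of transcript length in the calls was not tested.

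Nuclear OXPHOS promoters are known for binding sites of NRF1, of GABPA (also called NRF2) and other ETS factors, of YY1 and of the estrogen-related receptor ESRRA. RefSeq promoters (250 bases before to 50 bases after the gene start, GRCh38.p14) were found for 75 of the 91 nuclear genes and searched on both strands for GCGCATG (NRF1), CCGGAAG (GABPA), AAGATGG (YY1) and AAGGTCA (ESRRA). The GABPA letters end with the AAG with which the YY1 and ESRRA letters begin, so their matches can overlap. The NRF1 letters were in 21.3% of the OXPHOS promoters and in 4.67% of all 27305 promoters, those of GABPA in 28.0% and 10.7%, of YY1 in 21.3% and 6.06%, and of ESRRA in 12.0% and 3.97%. Among the promoters of 9390 genes tested in MEL290 the shares were 7.88%, 20.4%, 7.80% and 2.45%. At least 1 motif was found in 42 of the 75 promoters. A match is a description of letters and not of binding.

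Of the 8 nuclear genes called lower in A3B OE cells 6 had a promoter in the table, with the YY1 letters in COX7C and the GABPA letters in NDUFA1 and no match in NDUFAF8, NDUFB1, NDUFAB1 and NDUFB2. Shown are COX7C and NDUFA1, as the called genes with a match, UQCRQ, which was among the genes with the largest differences between the lines, and SDHB, the 1 promoter with all 4 motifs. Each is given 5′ to 3′ on the strand of its gene with motif letters in capitals. COX7C is at chr5:86617691-86617990 (plus), NDUFA1 at chrX:119871582-119871881 (plus), UQCRQ at chr5:132866392-132866691 (plus) and SDHB at chr1:17053983-17054282 (minus).
COX7C: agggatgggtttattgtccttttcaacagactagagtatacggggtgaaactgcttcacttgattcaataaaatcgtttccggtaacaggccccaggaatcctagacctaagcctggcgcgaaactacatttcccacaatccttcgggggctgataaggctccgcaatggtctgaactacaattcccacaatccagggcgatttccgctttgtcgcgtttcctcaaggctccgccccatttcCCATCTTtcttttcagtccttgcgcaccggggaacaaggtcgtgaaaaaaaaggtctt
NDUFA1: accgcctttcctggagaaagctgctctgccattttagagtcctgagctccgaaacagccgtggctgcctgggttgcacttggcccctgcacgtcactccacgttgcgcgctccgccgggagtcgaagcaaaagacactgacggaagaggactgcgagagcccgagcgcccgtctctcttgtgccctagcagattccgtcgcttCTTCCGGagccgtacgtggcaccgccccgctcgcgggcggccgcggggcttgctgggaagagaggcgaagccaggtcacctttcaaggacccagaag
UQCRQ: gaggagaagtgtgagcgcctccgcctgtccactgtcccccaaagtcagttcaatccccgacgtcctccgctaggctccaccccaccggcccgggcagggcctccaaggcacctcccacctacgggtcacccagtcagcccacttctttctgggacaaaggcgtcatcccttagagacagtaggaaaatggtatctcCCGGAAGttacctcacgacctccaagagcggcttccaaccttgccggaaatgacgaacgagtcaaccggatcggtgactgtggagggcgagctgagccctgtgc
SDHB: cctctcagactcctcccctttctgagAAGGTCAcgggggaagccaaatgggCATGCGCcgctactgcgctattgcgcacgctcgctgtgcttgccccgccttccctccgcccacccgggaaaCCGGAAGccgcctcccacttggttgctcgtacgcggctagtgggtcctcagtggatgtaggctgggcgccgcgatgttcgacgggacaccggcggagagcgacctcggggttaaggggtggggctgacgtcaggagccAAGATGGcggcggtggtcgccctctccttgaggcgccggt
In COX7C and NDUFA1 the capitals mark the reverse complement of the YY1 and of the GABPA letters, and in UQCRQ the GABPA letters themselves. In SDHB they mark, in order, the ESRRA letters, the NRF1 letters on the other strand, and those of GABPA and YY1. SDHB and COX7C thus share the YY1 letters, and their mRNAs stood at 50.3 ± 1.45 and 340 ± 20.05 FPKM (SD, n = 2) in NC cells and at 55.9 ± 0.793 and 266 ± 1.31 in A3B OE cells.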

How the data were processed

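The authors mapped the reads of the 8 libraries (2 per group) to GRCh38 by STAR and computed FPKM per gene with Cufflinks over Ensembl genes. These deposited FPKM values, already scaled to transcript length and mapped fragments, were the starting point. Depth was estimated roughly from low FPKM values, and counting error cannot be given. Cuffdiff, used by the authors, starts from reads and was not run.

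FPKM was transformed as log2(FPKM + 1), which understates changes of low genes. Genes that reached 1 FPKM in 2 or more libraries of a fit were tested by limma 3.58.1 (lmFit, then eBayes with an intensity trend; R 4.3.3), each line alone, and in all 8 libraries for the lines and for the difference of effects. P-values were adjusted over all tested genes and called under 0.05. With 2 libraries against 2, exact permutation of 1 value gives no two-sided p below 0.33. The scripts were tested on simulated data.

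The genes, 5 neighbouring lists, markers and motifs were chosen with earlier results of these data known. Named were all called genes up to 10 per comparison, otherwise the 5 largest rises and falls with groups apart; the highest and lowest gene of each complex; SDH genes; the nuclear core of complex I; mitochondrially encoded genes; isoform groups; ATP5IF1; up to 3 called genes per neighbouring list; and APOBEC3B. A gene of this rule is not reported here. Coordinates and lengths come from GENCODE 44, which held all 104 genes.

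Alternatives were no variance trend, quantile or upper quartile normalization, rescaling without mitochondrial genes, a stricter and no filter, a pseudocount of 0.1, a removed GC and length trend, the replicate number as a block, all 8 libraries in 1 fit, and each library left out.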

Additional observations from a re-analysis of the deposited data

How the results depend on the processing

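The number of calls changed with the processing. In MEL290 the 13 OXPHOS genes called lower became 3 without the variance trend, 3 with no filter, 22 after rescaling without mitochondrial genes, 6 with the replicate number as a block and 6 with all 8 libraries in 1 fit, and between 5 and 11 with a library left out; 0 were called higher in any of these. Of the 13 genes, 13 were among the 22, and 3, 3, 6 and 6 were among the calls of the other fits. With quantile normalization 18 were called, with upper quartile scaling 15, with a GC and length trend removed 19, and 13 with the stricter filter and with a pseudocount of 0.1. The median log2 difference of the OXPHOS genes in MEL290 lay between -0.14 and -0.03 over all settings. In 92.1 0 genes were called under every alternative, the replicate block included. The difference between the effects gave 0 calls in the reported fit, 3 with quantile normalization, 2 after rescaling without mitochondrial genes, 2 with the GC and length trend removed and 1 (NDUFB1) with the replicate block, all lower in the MEL290 contrast, and 0 with any library left out. The comparison of the lines called 66 to 79 genes. The complex III ratio of summed FPKM became 1.06 in 92.1 and 0.884 in MEL290 after rescaling without mitochondrial genes. No log2 difference printed beside the name of an OXPHOS gene changed sign under these settings; the ends of the ranges given for 92.1 were not recomputed.

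The labels do not say that a replicate number marks a shared batch. The block removed all 5 mitochondrially encoded calls in MEL290. The deviations of same-numbered libraries correlated across genes (genes are not independent replicates) at 0.193 in 92.1 and -0.0295 in MEL290, and over the OXPHOS genes alone at 0.456 and 0.403, with 2 pairs in each line. Depth is known only roughly, and values of exactly 0 can be failed estimates. Differences near the standard errors of 92.1 (about 0.13 on the log2 scale) could not have been called. Larger ones, of the size called in MEL290, may have been missed there as well.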
